A study of Salmo salar with 45 samples.

Results

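Atlantic salmon (*Salmo salar*) that ate the highest inclusion of Feed LP20™ (LP500) were compared with salmon that ate the control diet (CD), in the distal intestine. The groups were chosen by their diet labels alone, and held 18 of the 45 fish in the series (9 CD and 9 LP500). Feed LP20™ is a feed ingredient made of heat-killed *Lactobacillus plantarum* L-137 (HK L-137) and tapioca dextrin, and was included at 500 mg per kg of LP500 feed and at 0 mg in CD feed. All fish were juveniles of a single commercial strain kept in fresh water and had eaten their diet for 61 days. The remaining fish ate 20 or 100 mg per kg (LP20, LP100) or a yeast β-glucan (MG). The study kept each diet in 3 tanks and took 3 fish from each. The fish labels run in blocks of 3 consecutive numbers, each block with fish of a single diet, but they do not name the tanks. A difference between blocks and a difference between diets can therefore not be told apart within a block. The study's feed analysis also listed less crude lipid in LP500 feed than in CD feed, and the part of this in any result was not tested.

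The distal intestine of salmon is lined by tall absorptive cells that take up proteins whole through the receptor cubilin and digest them in large vacuoles. Beneath this epithelium lie connective tissue with blood vessels and immune cells, the muscle layers that move the gut, and the enteric nerves that steer them. Heat-killed lactobacilli are not alive, but their cell wall parts can be sensed by epithelial and immune cells, and they are fed to animals as immune stimulants. The RNA came from whole tissue. A lower value of a gene can come from fewer cells of a type or from less RNA per cell, and these cannot be told apart in such samples.

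Each library held 11674716 to 22377591 fragments counted on genes in CD (median 13034085) and 11842626 to 16551621 in LP500 (median 14686013). CD fish A003 had the highest total. Levels are given as CPM, the counts of a gene scaled to a fixed library total. At this depth a gene at 1 CPM rested on 11.7 to 22.4 fragments, which gives a counting error of 29.3% to 21.1%. The tissue label was checked with *cubn*, the gene of cubilin, which lay between 2793 and 4005 CPM in every CD fish and between 2033 and 3793 CPM in every LP500 fish.

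Of 29089 genes tested, 1539 were up-regulated in LP500 (5.29% of those tested) and 436 were down-regulated (1.5%). The test was edgeR's quasi-likelihood test with an adjusted p under 0.05, and it was fitted to these 18 fish. The changes of both directions differed in size. The up-regulated genes had a median log2 fold change of 1.33, from 0.20 to 2.65, and 1185 of them (77.0%) changed by more than 1 on the log2 scale. The down-regulated genes had a median of −0.57, from −2.86 to −0.21, and 73 of them (16.7%) changed by more than 1. The up-regulated genes were also low in CD, with a median level of 1.68 CPM against 14.4 CPM for the down-regulated genes and 8.81 CPM for all genes tested. In LP500 these medians were 4.50, 8.99 and 8.88 CPM. A gene low in CD could pass the filter on low counts through LP500, and at low counts a change must be larger to pass the test. The differences in level and size between the directions are thus partly set by filter and test, and are not a result. Over all genes the median log2 fold change was 0.004.

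**Figure D1:**
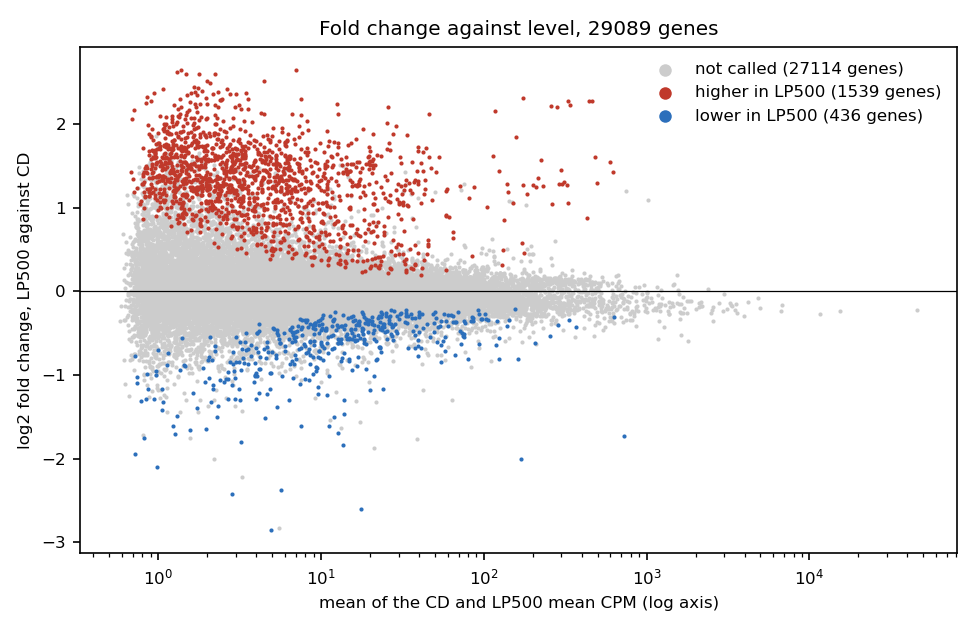
Log2 fold change of LP500 against CD (vertical axis) against the mean CPM of the groups (horizontal, log axis), 1 point per gene. The 1539 up-regulated genes (red) spread up to 2.65, most of them at low CPM. The 436 down-regulated genes (blue) mostly lie close under 0.

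The up-regulated genes described first are *vwf* and *col1a1a*, which belong to the 12 genes with the smallest p that carried a clear symbol. Genes with a smaller p, most of them with only a locus number or an identifier, were not among these 12. *vwf*, the clotting protein that endothelial cells store and release, lies on chromosome 10 (125650099 to 125819568, build Ssal 3.1, plus strand). It ranged from 0.344 to 1.54 CPM in CD (median 1.15) and from 0.933 to 10.9 CPM in LP500 (median 2.89). 8 LP500 fish lay above every CD fish, and the remaining one, A067, lay inside the CD range. The log2 fold change was 2.36 ± 0.43 (SE), or 5.13-fold, with an edgeR adjusted p of 0.0119. *col1a1a*, a chain of type I collagen, lies on chromosome 6 (44754656 to 44777524, plus strand). It ranged from 24.2 to 182 CPM in CD (median 41.5) and from 37.5 to 639 CPM in LP500 (median 271). The groups overlapped through a single fish on each side: CD fish A073 was the highest of its diet, and LP500 fish A015 lay below the CD median. The log2 fold change was 2.31 ± 0.44, or 4.97-fold (edgeR adjusted p = 0.0119).

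The other 10 of these 12 genes had the same adjusted p of 0.0119 in edgeR and are known for varied roles. *pecam1b*, an adhesion molecule of endothelial cells, rose by 1.85 on the log2 scale. *crip2*, a LIM domain protein of vascular and heart muscle, rose by 1.92. *fgd5b*, an activator of the GTPase Cdc42 in endothelium, rose by 1.94. *unc5cb*, a receptor of the guidance cue netrin, rose by 1.605, and *ank2b*, an adaptor between membrane proteins and the spectrin skeleton, by 2.17. *loxl3b*, an enzyme that crosslinks collagen, rose by 1.56, and *dse*, which modifies dermatan sulfate chains, by 1.31. *pdli3*, a PDZ and LIM domain protein, rose by 1.44, *acap3a*, a regulator of Arf GTPases, by 1.77 and *klhdc8b*, a kelch protein, by 1.74. In 8 of these 12 genes, *vwf* included, 8 LP500 fish lay above every CD fish, and in the other 4 genes 7 did. These genes were picked by their p in the same fish, so this separation follows from the choice and is not a result. Some of them were low in CD and could have passed the filter on low counts through LP500. Such counts of fish in other genes picked by a small p are no result either.

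The extracellular matrix was described with lists of gene symbols, of which only the members that carried a matched RefSeq symbol and passed the filter on low counts could be tested. A member low in CD could pass this filter through LP500. In this and the later lists the share of tested members that were up-regulated can be raised by this. In the list of structural matrix genes 41 genes matched and 29 were tested. 20 were up-regulated and 1, *lama3*, was down-regulated, and the list's median log2 fold change was 1.52. The up-regulated genes reached from *nid1a*, a basement membrane linker (0.56), to *col1a1a* (2.31). *fn1a*, which encodes the cell-binding matrix protein fibronectin, ranged from 4.12 to 23.3 CPM in CD (median 4.55) and from 3.77 to 47.1 CPM in LP500 (median 29.9), with a log2 fold change of 1.94 ± 0.40 (edgeR adjusted p = 0.0119). *lum*, a small proteoglycan that orders collagen fibrils, rose by 1.87 and *col4a1*, the collagen of basement membranes, by 1.78. *lama3*, a laminin chain of epithelial basement membranes, lay between 329.5 and 522 CPM in CD and between 222 and 408 CPM in LP500, with a log2 fold change of −0.43 ± 0.12 (edgeR adjusted p = 0.0287).

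Among enzymes that build or cut the matrix, 13 of 28 tested genes were up-regulated and none was down-regulated (median 1.02). *adamts1*, a protease that cleaves proteoglycans, rose by 1.92, *pcolcea*, which helps to trim procollagen, by 1.71, *mmp2*, a gelatinase, by 1.47 and *timp2a*, an inhibitor of such proteases, by 0.71. Of 12 fibroblast genes 7 were up-regulated and none was down-regulated (median 0.98). *dpt*, the matrix protein dermatopontin, ranged from 4.77 to 28.3 CPM in CD (median 6.79) and from 5.35 to 105 CPM in LP500 (median 38.7), a log2 fold change of 2.02 ± 0.42 (edgeR adjusted p = 0.012). Of 31 integrin and focal adhesion genes 7 were up-regulated, with a median of 0.19 over the list. They included *actn1*, an actin crosslinker of adhesion sites (1.32), *tns1b*, a tensin that ties integrins to actin (1.46), and *ilk*, the integrin-linked kinase (0.56).

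In the list of endothelium and pericytes 23 genes matched and 12 passed the filter on low counts. Of the 12 tested genes, 11 were up-regulated and none was down-regulated, with a median log2 fold change of 1.68. *flt1*, a receptor of vascular endothelial growth factor, rose by 1.86, and *abcc9*, a channel subunit of pericytes, by 1.95. *pecam1a*, the sister copy of *pecam1b*, ranged from 0.229 to 4.53 CPM in CD (median 1.21) and from 0.980 to 10.7 CPM in LP500 (median 4.64), with a log2 fold change of 1.74 ± 0.43 (edgeR adjusted p = 0.0207). In *pecam1a* the highest CD fish was A073.

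Of 28 tested genes of smooth muscle contraction 13 were up-regulated, none was down-regulated and 15 did not pass the test (median 0.80). *acta2*, the actin of smooth muscle, lies on chromosome 19 (49378761 to 49393630, minus strand). The spans of the counted gene and of its RefSeq match shared 0.53 of their joint length, so its name is less sure than those above. The same holds for *timp2a* (0.57) and, below, for *mab21l2* (0.57), *cd79b* (0.52) and *krt18b* (0.60). *acta2* ranged from 207 to 661 CPM in CD (median 292) and from 303 to 2619 CPM in LP500 (median 762). A073 was again the highest CD fish, A013 the highest and A015 the lowest LP500 fish. Its log2 fold change was 1.43 ± 0.34, or 2.70-fold (edgeR adjusted p = 0.0158). *tpm1*, a tropomyosin that lies along actin filaments, rose by 1.17, *pgm5*, a protein of muscle adhesion sites, by 1.57, and *pdlim3a*, an actinin-binding protein, by 1.51.

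In the list of enteric neurons and glia 31 genes matched and 16 passed the filter on low counts. Of these 16 tested genes 8 were up-regulated and none was down-regulated (median 0.83). *vipb*, which encodes a relaxing neuropeptide of gut nerves, ranged from 0.229 to 1.47 CPM in CD (median 0.599) and from 0.603 to 11.3 CPM in LP500 (median 2.62). 8 LP500 fish exceeded every CD fish, and A015 did not. This gave a log2 fold change of 2.38 ± 0.46, or 5.22-fold (edgeR adjusted p = 0.0119). *nos1*, the enzyme that makes nitric oxide in inhibitory nerves, rose by 2.08, *prph*, a filament protein of peripheral neurons, by 2.18, *l1cama*, an adhesion molecule of axons, by 2.0 and *mpz*, a myelin protein, by 2.296. *elavl3*, an RNA-binding protein of neurons, had a log2 fold change of 0.17 ± 0.09 (edgeR adjusted p = 0.263), with 28.2 to 44.7 CPM in CD and 32.7 to 50.1 CPM in LP500. *ret*, a receptor of enteric neuron precursors, had one of −0.16 ± 0.16 (edgeR adjusted p = 0.606). *kita*, the receptor of stem cell factor that marks pacemaker cells of the gut and mast cells in mammals, went the other way. It fell from 14.1 to 23.1 CPM in CD (median 16.4) to 8.27 to 15 CPM in LP500 (median 12.1), a log2 fold change of −0.53 ± 0.11 (edgeR adjusted p = 0.0125). Of the 3 tested genes in the list of pacemaker and mast cells *kita* alone passed the test in edgeR. *gucy1b1* had a log2 fold change of 1.18 and *kitlga* one of −0.35, and DESeq2 called 1 member higher and 1 lower. The list's members thus shared no direction.

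**Figure D2:**
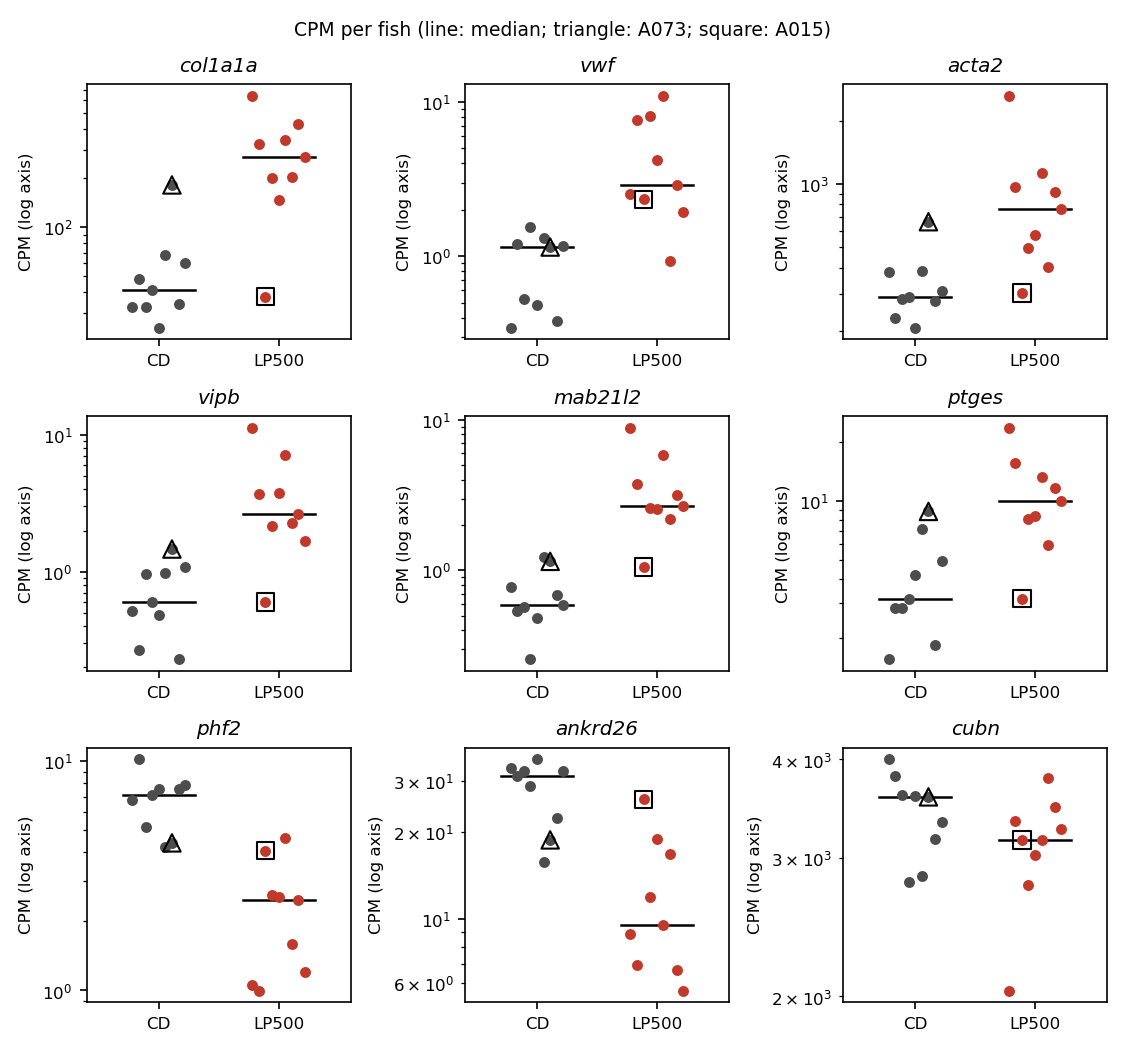
CPM of 9 genes in each fish (vertical, log axis) for CD (grey) and LP500 (red), with the median as a line. CD fish A073 (triangle) lies at or near the top of its diet in *col1a1a*, *acta2*, *vipb*, *mab21l2* and *ptges*, and LP500 fish A015 (square) is the lowest of its diet in those genes. In *cubn* the groups overlap widely.

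Of 22 tested regulators of mesenchyme 5 were up-regulated and none was down-regulated, and 11 of the 22 log2 fold changes lay above 0 (median 0.0015). Of 31 tested *hox* genes, which pattern the body axis, *hoxc5ba* (1.46) alone was up-regulated and none was down-regulated (median −0.07). At the shares over all genes tested (5.29% up-regulated, 1.5% down-regulated) 31 genes would also hold few calls. The regulators that rose included *meis2a*, a homeobox factor (1.54), and *mab21l2*. *mab21l2*, which is needed for eye and body wall development in mammals, lies on chromosome 8 (13125722 to 13129092, minus strand). It ranged from 0.257 to 1.24 CPM in CD (median 0.586) and from 1.06 to 8.87 CPM in LP500 (median 2.69), a log2 fold change of 2.36 ± 0.35, or 5.13-fold (edgeR adjusted p = 0.0105). Only A015 lay within the CD range. Of 22 TGF-β and BMP genes 5 were up-regulated and none was down-regulated (median 0.11). They included *bmp4*, a secreted signal of gut mesenchyme (1.48), *nbl1*, a BMP antagonist (1.27), *acvrl1*, a receptor of endothelial cells (0.80), and *htra1*, a secreted protease (1.61). *tgfb1a*, the ligand itself, had a log2 fold change of 0.40 ± 0.15 (edgeR adjusted p = 0.134). Of 16 genes of the Wnt, Hedgehog and Notch pathways *ptch1*, a Hedgehog receptor (1.52), *dkk3b*, a secreted Dickkopf protein (1.21), and *jag1b*, a Notch ligand (0.87), were up-regulated. The call of *jag1b* was lost in 21 of 41 alternatives.

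None of the 11 genes of T and NK cells (median 0.04) or of the 7 genes of B and plasma cells (median 0.10) passed the test in either direction in edgeR. At an unadjusted p under 0.05 they held 0 and 1 genes, and DESeq2 called none of them. Over all 29089 genes tested in edgeR, 6321 lay under this unadjusted p, 5.29% were up-regulated and 1.5% were down-regulated. At the shares called, lists of 11 and 7 genes would hold few calls or none. *cd3e*, a chain of the T cell receptor complex, lay between 17.03 and 24.96 CPM in CD and between 19.1 and 27.6 CPM in LP500 (log2 fold change 0.04 ± 0.09, edgeR adjusted p = 0.847). *cd79b*, its counterpart on B cells, had a log2 fold change of 0.05 ± 0.14 (edgeR adjusted p = 0.871). Of 50 genes of innate sensing and cytokines 6 were up-regulated and none was down-regulated, with a median of −0.02. *ptges*, which makes prostaglandin E, ranged from 1.55 to 8.86 CPM in CD (median 3.16) and from 3.17 to 23.8 CPM in LP500 (median 10.1), with a log2 fold change of 1.42 ± 0.35 (edgeR adjusted p = 0.0197). *ptgs2b*, the inducible cyclooxygenase upstream of it, rose by 1.61 from a CD median of 0.502 CPM, a call lost in 20 of 41 alternatives. *anxa1*, which encodes the calcium-binding protein annexin A1 that dampens inflammation, ranged from 28.5 to 46.6 CPM in CD (median 36.2) and from 33.8 to 101 CPM in LP500 (median 49.5). The log2 fold change of *anxa1* was 0.62 ± 0.16, or 1.53-fold (edgeR adjusted p = 0.0251). Its call was lost in 10 of 41 alternatives, and its highest LP500 fish, A013, stood apart from the next at 64.2 CPM.

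Of 16 myeloid genes *csf3r*, the receptor of a granulocyte growth factor (0.99), and *marcksl1b*, an actin-binding protein (1.22), were up-regulated. None was down-regulated, and the list's median was 0.12. At the share over all genes tested (5.29% up-regulated) 16 genes would also hold few calls. The calls of *csf3r* and *marcksl1b* were lost in 9 and 8 of 41 alternatives. Of 11 tested antibacterial and complement genes 4 were up-regulated. *c7a*, a component of the complement pore, ranged from 2.32 to 16.6 CPM in CD (median 3.42) and from 4.98 to 43.8 CPM in LP500 (median 16.8), with a log2 fold change of 1.78 ± 0.40 (edgeR adjusted p = 0.0141). *c7b*, *c6.2* and *cfd*, the last a protease of the alternative pathway, rose by 1.34, 1.89 and 1.25. The call of *c7b* was lost in 21 of 41 alternatives. *c7a* and *c7b* also stood in the fibroblast list.

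**Figure D3:**
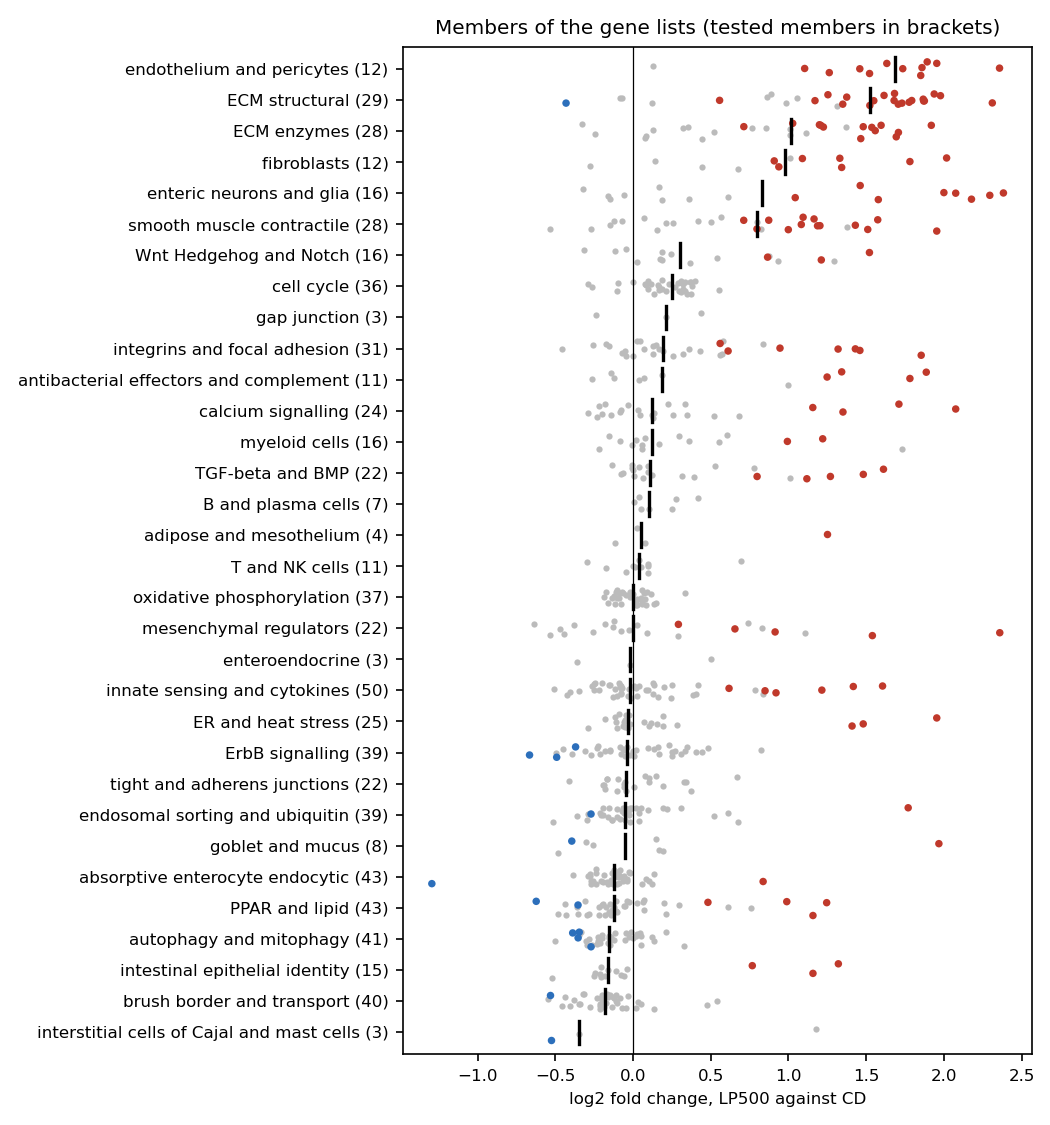
Log2 fold change of LP500 against CD (horizontal) of each tested member of the lists with at least 3 tested members. Red and blue points were up- and down-regulated, grey points did not pass the test, and the black bar is the list's median. The bar lies at 1.68 for endothelium and pericytes and at −0.18 for brush border and transport.

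The down-regulated genes included few members of the lists above. *phf2*, which encodes a histone demethylase, led them and lies on chromosome 12 (100490073 to 100699587, plus strand). It ranged from 4.2 to 10.2 CPM in CD (median 7.10) and from 0.997 to 4.63 CPM in LP500 (median 2.49). 8 LP500 fish lay below every CD fish, and the exception was A027. The log2 fold change was −1.51 ± 0.27, or 2.84-fold lower (edgeR adjusted p = 0.0119). *ankrd26*, an ankyrin repeat protein of centrioles on chromosome 10 (67249684 to 67412471, plus strand), ranged from 15.7 to 35.6 CPM in CD (median 31.2) and from 5.65 to 25.9 CPM in LP500 (median 9.54). Here 6 LP500 fish lay below every CD fish, and A015 was the highest of its diet. The log2 fold change was −1.17 ± 0.26, or 2.26-fold lower (edgeR adjusted p = 0.0136). *znf646*, a zinc finger gene on chromosome 19 (56883165 to 56890653, plus strand), showed a small and even change. It lay between 9.22 and 11.2 CPM in every CD fish and between 6.51 and 9.02 CPM in every LP500 fish, so that the groups did not overlap (log2 fold change −0.40 ± 0.08, edgeR adjusted p = 0.0119).

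*pleca*, which encodes plectin, a linker of intermediate filaments, fell from 44.8 to 88.1 CPM in CD (median 64.5) to 20.2 to 73 CPM in LP500 (median 36.9), a log2 fold change of −0.84 ± 0.20 (edgeR adjusted p = 0.0165). *luzp1*, a leucine zipper protein of actin and cilia, had a log2 fold change of −0.91, and *ssh1a*, a phosphatase that activates cofilin, one of −0.87. *inpp5f*, an inositol phosphatase of endosomes, had −0.96. *rab11a*, the GTPase of recycling endosomes, ranged from 4.59 to 12.5 CPM in CD (median 9.45) and from 0.797 to 8.79 CPM in LP500 (median 2.87), with a log2 fold change of −1.29 ± 0.38 (edgeR adjusted p = 0.0455). *myo5b*, the motor that carries Rab11 vesicles to the apical membrane, ranged from 70.8 to 108 CPM in CD (median 87.1) and from 30.8 to 88.5 CPM in LP500 (median 62.7). Its log2 fold change was −0.54 ± 0.15 (edgeR adjusted p = 0.0317), and 7 LP500 fish lay below every CD fish. *rab11a* was the single down-regulated gene of the endocytic list described below, and it lost its call in 25 of 41 alternatives. Of 39 tested genes of endosomal sorting and ubiquitin *acap3a* was up-regulated and *usp8* down-regulated (median −0.05). Few calls would also be held by 39 genes at the shares over all genes tested, 5.29% up-regulated and 1.5% down-regulated.

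Of 41 autophagy genes 4 were down-regulated and none was up-regulated (median −0.15). They were *epg5*, which tethers autophagosomes to lysosomes (−0.39), *bnip3l*, a receptor for mitophagy (−0.35), *wdfy1*, an endosome-binding protein (−0.35), and *usp8*, a deubiquitinase of endosomes (−0.27). Of 39 genes of ErbB signalling the receptor *erbb2* (−0.49), the transcription factor *elk1* (−0.67) and the kinase *map2k4* (−0.37) were down-regulated and none was up-regulated, and the median was −0.04. The calls of *bnip3l*, *elk1*, *erbb2* and *map2k4* were lost in 22, 24, 18 and 13 of 41 alternatives. Genes of lipid handling went both ways. *pnpla2*, the first lipase of stored triglyceride, fell from a CD median of 15.1 CPM to 10.4 CPM (log2 fold change −0.62 ± 0.15, edgeR adjusted p = 0.0166) and *pparg*, the nuclear receptor of fat storage, from 21.7 to 16.8 CPM (−0.35 ± 0.10, edgeR adjusted p = 0.045). The call of *pparg* was lost in 28 of 41 alternatives. *lipe*, hormone-sensitive lipase, rose from 3.44 to 10.02 CPM (1.25 ± 0.30, edgeR adjusted p = 0.0182) and *cpt1b*, which brings fatty acids into mitochondria, from 4.19 to 6.18 CPM (0.48 ± 0.13, edgeR adjusted p = 0.0281). The call of *cpt1b* was lost in 18 of 41 alternatives. Over this list of 43 genes 4 were up-regulated and 2 were down-regulated (median −0.12), beside shares of 5.29% and 1.5% over all genes tested.

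Few genes in the lists of the absorptive epithelium passed the test. Over all genes tested 5.29% were up-regulated and 1.5% down-regulated, and at these shares lists of this size would also hold few calls. Of 43 tested genes of the endocytic machinery 1 was up-regulated and 1 was down-regulated, and 6 of the 43 log2 fold changes lay above 0 (median −0.12). Of 40 genes of the brush border and transport *myo5b* was the single gene that passed the test, and 6 of the 40 lay above 0 (median −0.18). *cubn* itself had a log2 fold change of −0.13 ± 0.11 (edgeR adjusted p = 0.497). None of 22 genes of tight and adherens junctions, 37 of oxidative phosphorylation and 36 of the cell cycle passed the test in either direction, with medians of −0.05, 0.00 and 0.25. At an unadjusted p under 0.05 in edgeR these lists held 1, 3 and 6 genes, and DESeq2 called 1 cell cycle gene lower and no other member. Over all 29089 genes tested in edgeR, 6321 lay under this unadjusted p. Of the 15 tested genes of epithelial identity *krt18b*, a keratin (1.32), *prom1a*, a membrane protein of epithelial progenitors in mammals (0.77), and *nr1h4*, the bile acid receptor (1.16), were up-regulated, while the list's median was −0.16. The calls of *nr1h4* and *prom1a* were lost in 24 and 20 of 41 alternatives.

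In 4 genes every LP500 fish lay above every CD fish (0.0138% of genes tested), and in 9 genes every LP500 fish lay below (0.0309%). Of these 13 genes 12 passed the test. *LOC106566675* on chromosome 13 (23012829 to 23121004, minus strand) lay between 0.459 and 0.861 CPM in CD and between 0.980 and 2.28 CPM in LP500 (log2 fold change 1.12 ± 0.20). *LOC106588860* on chromosome 27 (28604329 to 28635730, plus strand) lay between 0.172 and 0.994 CPM in CD and between 1.08 and 2.89 CPM in LP500 (1.53 ± 0.32). On the lower side, *ENSSSAG00000097185* on chromosome 17 (60457771 to 60464500, plus strand) lay between 0.701 and 2.01 CPM in CD and between 0 and 0.672 CPM in LP500 (−1.75 ± 0.36). *LOC106564833* lay between 0.957 and 1.94 CPM in CD and between 0.336 and 0.942 CPM in LP500 (−0.99 ± 0.22). The genes just named lay near 1 CPM, where few fragments were counted. The lower gene *LOC106601236* lay well above this level. On the scale of all 45 fish it lay between 14.6 and 25.2 CPM in CD and between 10.2 and 14.5 CPM in LP500. Its call was lost in 3 of 41 alternatives. *znf646*, described above, also lay well above 1 CPM. The filter on low counts asked for counts in as many fish as a single diet holds. A gene near its limit could thus pass through the diet where it is high. In such genes the lack of overlap is not a result.

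The fish did not follow their diet evenly. Over the up-regulated genes the median deviation from the gene's mean over the 18 fish, on the log2 scale, ran from −0.84 to 0.30 in CD, where A073 was the highest. It ran from −0.76 in A015 to 1.62 in A013 in LP500. Over the down-regulated genes the order was turned, from 0.04 to 0.45 in CD and from −0.73 in A013 to 0.12 in A015. These are the genes that the test selected, so their direction over all fish is not a result. In the lists of structural matrix, matrix enzyme, fibroblast, endothelial, smooth muscle and enteric nerve genes A073 was also the highest CD fish and A015 the lowest LP500 fish. Other fish stood there in other lists, such as A049 and A069 in T and NK cells and A051 and A069 in B and plasma cells. The mean level of the structural matrix list ran from −1.13 to 0.61 in CD and from −1.08 to 1.54 in LP500, and that of endothelium and pericytes from −1.24 to 0.29 and from −0.75 to 1.57. The level of the brush border list ran from −0.003 to 0.24 in CD and from −0.52 in A013 to 0.30 in A015 in LP500. In this list 8 LP500 fish lay below every CD fish, and 1, A015, lay above every CD fish. In the endocytic list 6 LP500 fish lay below every CD fish and 0 lay above. For the structural matrix list 5 LP500 fish lay above every CD fish and 0 lay below. The first principal component of the 2000 most variable genes held 41.4% of their variance and placed A015 (−37.9) among the CD fish and A073 (17.0) among the LP500 fish.

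**Figure D4:**
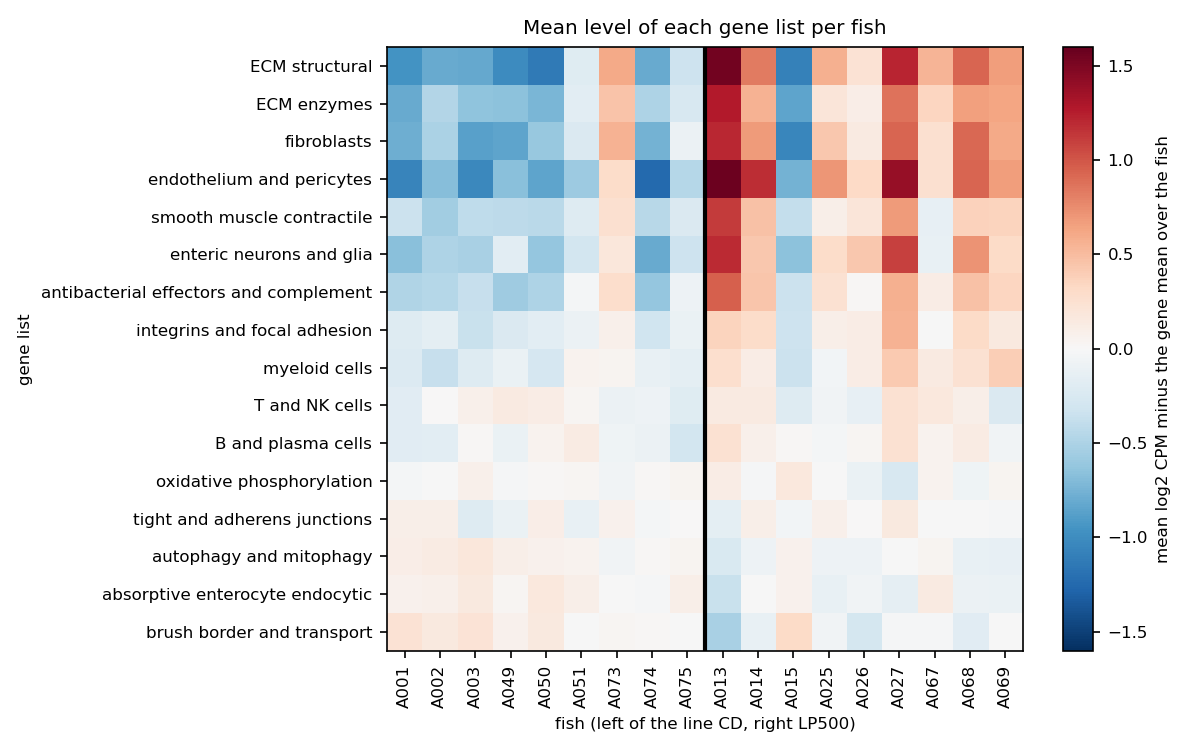
Mean level of 16 gene lists (rows) in each fish (columns), as log2 CPM minus the gene's mean over the 18 fish, with CD left of the black line and LP500 right of it. Matrix, vessel, muscle and nerve lists are blue in most CD fish and red in most LP500 fish, with A073 and A015 as exceptions. The epithelial lists stay pale on this colour scale apart from A013, although 8 LP500 fish lay below every CD fish in the brush border list.

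Markers of several tissue layers and a single marker of red blood cells were among the up-regulated genes. Several of these markers, such as *col1a1a*, *fn1a*, *vwf* and *acta2*, are genes already described above, so they add no separate support. The 2 smooth muscle, 3 fibroblast and matrix, and 4 endothelial markers tested were each up-regulated, with medians of 1.31, 1.94 and 1.79, and none of the 4 enterocyte markers passed the test (median −0.14). Each of these 13 markers was above 0 CPM in every fish. *alas2*, the enzyme of heme synthesis in red blood cells and the single tested marker of these cells, was up-regulated too. It ranged from 0.428 to 5.17 CPM in CD (median 2.51) and from 3.02 to 25.9 CPM in LP500 (median 5.55), a log2 fold change of 1.64 ± 0.41 (edgeR adjusted p = 0.0209). The wider list of red blood cell genes had 2 tested members. The other member, *epb41a*, did not pass the test and had a log2 fold change of −0.04. Neither of the 2 enteric neuron markers tested, *elavl3* and *ret*, passed the test (median 0.004), nor did the tested markers of goblet, T, B and myeloid cells. When the difference between the smooth muscle and enterocyte marker levels of each fish was put into the edgeR fit, no gene passed in either direction, with 1549 genes at an unadjusted p under 0.05. DESeq2 with the same term called 10 higher and 1 lower. The median log2 fold change of the genes called up fell from 1.33 to 0.45 and that of the genes called down from −0.57 to −0.31. The 2 smooth muscle markers in this term, *acta2* and *myl9b* (1.19), were themselves up-regulated in the same comparison, so the term carries part of the difference between the diets and the fit is no test of tissue share. The share of muscle, connective tissue and blood in the piece of gut taken from each fish was not measured, and its part in the results was not tested.

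The number of genes called rested on several fish. Leaving out each fish in turn gave 898 to 2361 up-regulated and 198 to 1118 down-regulated genes. 875 of the 1539 and 153 of the 436 were called every time. The most genes were called without A015 (2361 and 1118), and 1906 and 689 were called without A073. The fewest up-regulated genes were called without A013 (898). The block of CD fish A001 to A003 mattered more: without it edgeR called no gene in either direction, with 4171 genes at an unadjusted p under 0.05 and a smallest adjusted p of 0.142. Without CD fish A049 to A051 edgeR called 1 up and 4 down, with 6035 genes at an unadjusted p under 0.05. DESeq2 called 925 up and 128 down without the former block, and 1786 and 689 without the latter. The median log2 fold change of the 1539 genes was 1.18 and 1.29 without these blocks, against 1.33 with all fish. These genes were selected in the fit on all fish, most of which remain in these fits. That the median stayed above 0 is therefore not a result. When the counts were summed per block, with 3 sums per diet, 1805 genes were up-regulated and 543 down-regulated, of which 1245 and 259 were among those of the fit on single fish.

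**Figure D5:**
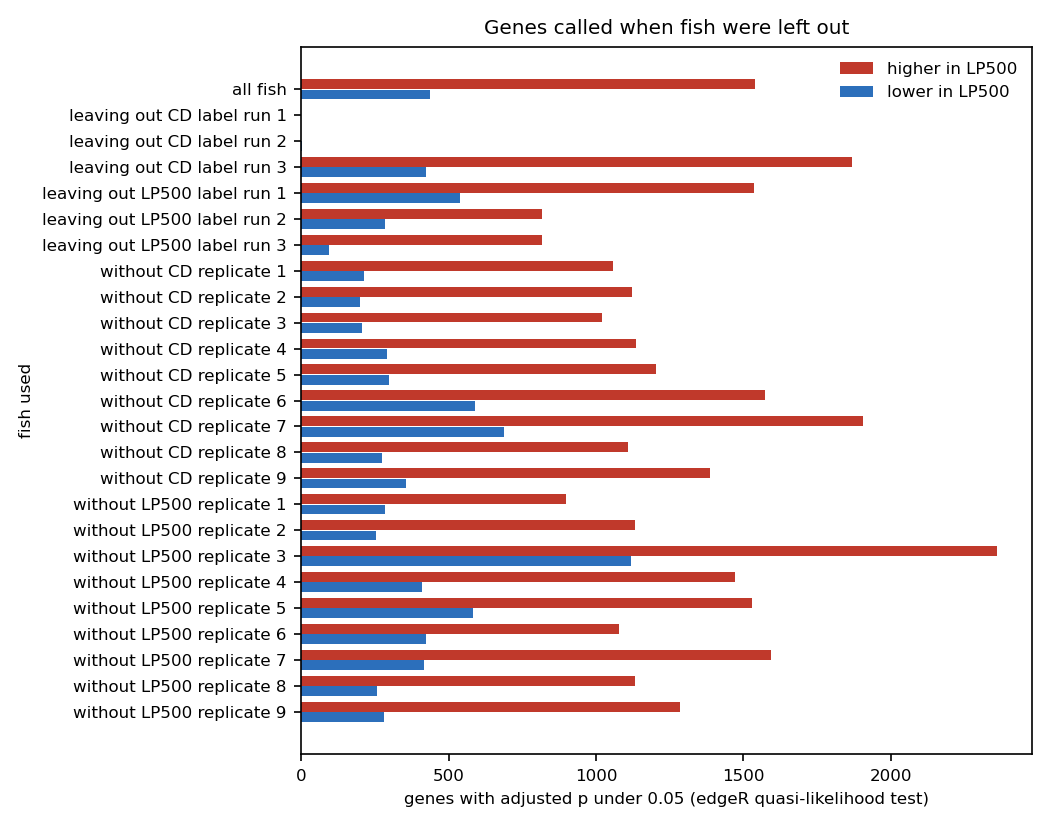
Number of genes called up (red) and down (blue) in LP500 by the edgeR test (horizontal axis) with all fish and with blocks of 3 consecutive labels or single fish left out (rows). The bars vanish without the first CD block, are at 1 and 4 without the next one, and are longest without LP500 replicate 3 (A015).

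Levels of the leading genes in the other diets are given as values, since each comparison with CD would use the same CD fish. On the common scale of all 45 fish the median of *col1a1a* was 41.7 CPM in CD, 185 in LP20, 268 in LP100, 273 in LP500 and 73.5 in MG. *acta2* followed the same order, with medians of 293, 503, 675, 767 and 424 CPM. *vwf* had medians of 1.15, 2.54, 1.77, 2.86 and 1.34 CPM, and *vipb* 0.602, 2.14, 2.90, 2.59 and 1.21 CPM. Among down-regulated genes, *phf2* had medians of 7.13, 5.61, 1.92, 2.46 and 5.82 CPM and *ankrd26* 31.5, 20.7, 11.1, 9.27 and 24.0 CPM. In each of these 6 genes the ranges of the diets overlapped.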

How the data were processed

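RNA of the distal intestine was sequenced as paired reads for 45 fish. The authors ran nf-core rnaseq v3.3, aligned reads to Ssal 3.1 and counted fragments per gene with featureCounts v1.5.1 per the file headers, strand-specific, with duplicates marked and multi-mapping reads not counted, which lowers genes with a near-identical copy from the salmonid genome duplication. The deposited values are raw counts, beside which the files give other columns such as the deposited exon length. RNA quality was given differently by the labels and the methods.

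Symbols came from a RefSeq table by span overlap: 30325 of 69389 genes matched and 8776 had a symbol. CD and LP500 were fitted with edgeR 4.0.16 (R 4.3.3; filterByExpr, TMM, glmQLFTest, Benjamini-Hochberg) without covariates. CPM used TMM scaling. Alternatives used other scalings and filters, a likelihood ratio test, limma 3.58.1, DESeq2 1.42.0, all fish, summed blocks, left-out fish and a marker term. Scripts were tested on simulated data. Members and lists were chosen with earlier results of these data known. Genes named were the 12 with the smallest p in each direction that carried a clear symbol, up to 4 per list, fixed anchors and 3 per direction whose groups did not overlap; the other called list members named beside them were chosen after their values were seen. Fish of 1 tank share their water, so p-values treat them as more independent than they may be.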

Additional observations from a re-analysis of the deposited data

Results flagged for a closer look

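In 146 groups of 9 fish 18 values lay far from the rest of their diet by Dixon's test. Chance flags about 1 in 20 groups only where values are independent and normally spread. Many of these genes and lists vary together, and CPM were tested without a log scale. The count is therefore not set against that rate. The total count of CD fish A003 was 22377591, against 15554810 in the next fish. CD fish A073 was the highest of its diet in 7 of the 18. Its level of the matrix enzyme list was 0.46 and that of the smooth muscle list 0.26, on the log2 scale around the mean of each gene. A073 also stood apart in *col1a1a* (182 CPM), *fn1a* (23.3 CPM), *acta2* (661 CPM), *pecam1a* (4.53 CPM) and *pdli3* (13.7 CPM). LP500 fish A015 was the lowest of its diet in the structural matrix list (−1.08) and the fibroblast list (−1.04), and the highest in *ciz1b*, a zinc finger gene of DNA replication (26.2 CPM). LP500 fish A013 was the highest of its diet in *loxl3b* (36.1 CPM), *pdli3* (50.9 CPM), *anxa1* (100.6 CPM) and *acta2* (2619 CPM). The remaining values were *kita* in CD fish A002 (23.1 CPM), *LOC106564833* in CD fish A050 (1.94 CPM) and a down-regulated gene with a provisional zebrafish-style symbol in LP500 fish A025 (5.29 CPM).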

How the results depend on the processing

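Against 1539 up-regulated genes in the fit on single fish, limma-voom called 911, DESeq2 2698 and the fit on all 45 fish 2365. Against 436 down-regulated genes, library totals without TMM gave 228, the likelihood ratio test 696, DESeq2 1035 and all 45 fish 1020. The mean log2 TMM factor was 0.06 higher in LP500 than in CD, which lowers fold changes of LP500 against CD relative to library totals. The up-regulated calls were 0, 1, 816 and 818 without CD blocks 1 and 2 and LP500 blocks 2 and 3, and the down-regulated calls 0, 4, 283 and 96. DESeq2 gave 925 and 2900 up without CD blocks 1 and 3. It gave 128, 689 and 1058 down without CD blocks 1, 2 and 3 and 1133 and 926 without LP500 blocks 1 and 2. With the marker term edgeR gave 0 and 0 and DESeq2 10 and 1. These fits of DESeq2 were chosen after seeing the data. Leaving out each fish gave 898 to 2361 up and 198 to 1118 down. The causes were not tested. No paired analysis was possible because the labels number each fish singly and no number is shared between diets. The replicate numbers used here follow the order of deposition and pair no fish.

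Of 6928 values of 169 genes under alternatives, 5305 stayed on their side of the threshold, 1600 kept their direction but lost it, 1 gained it and 22 changed sign. With the marker term in edgeR and DESeq2 these were *cubn* (0.0650 and 0.0614), *tgfb1a* (−0.0457 and −0.0423), *csrp1* (−0.0321 and −0.0373), *fhl1* (−0.00298 and −0.00692), *smtna* (−0.0311 and −0.0339) and *meis1b* (−0.00836 and −0.0118). Without CD block 3, edgeR and DESeq2 gave *cd3e* −0.0501 and −0.0665 and *cd79b* −0.0923 and −0.108, and DESeq2 without LP500 block 2 gave *cd3e* −0.00415. With single fish left out *cd3e* ran from −0.0190 to 0.0593 and *cd79b* from −0.0406 to 0.0785. Depth limits genes near 1 CPM, where counting error alone was 21.1% to 29.3%. Calls given without a count of lost alternatives were not always kept either. *cfd*, *nid1a* and *myo5b* lost theirs in 15, 14 and 14 of 41.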

Other observations

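The following genes were chosen after their values were seen. The down-regulated genes of the highest level with a log2 fold change beyond −1 were *LOC106591811* and *LOC106597275*, for which the tables used here give no function. Their names are less sure, since the counted genes and their RefSeq matches shared 0.62 and 0.545 of their joint spans. Both lie on the plus strand of chromosome 23 (46015119 to 46037635 and 46071149 to 46091572). *LOC106591811* ranged from 536 to 1856 CPM in CD (median 1106) and from 57.8 CPM in A013 to 1299 CPM in A015 in LP500 (median 177). 8 LP500 fish lay below every CD fish, and the log2 fold change was −1.73 ± 0.47 (edgeR adjusted p = 0.0311). Its call was lost in 17 of 41 alternatives. *LOC106597275* ranged from 85.1 to 380.3 CPM in CD (median 331) and from 3.74 to 268 CPM in LP500 (median 32.3), again with A013 lowest and A015 highest (−2.01 ± 0.59, edgeR adjusted p = 0.0461), a call that was lost in 27 of 41 alternatives. In both genes A051 and A073 were the lowest CD fish. On the scale of all 45 fish the medians of *LOC106591811* were 1114 CPM in CD, 444 in LP20, 169 in LP100, 178 in LP500 and 996 in MG. Those of *LOC106597275* were 331, 76.1, 18.2, 32.5 and 185 CPM. The ranges of the diets overlapped in both genes.

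3 further genes known from nerves were up-regulated. *ngfrb*, a neurotrophin receptor, rose by 2.62 on the log2 scale, *neum*, whose symbol stands for the growth cone protein neuromodulin, by 2.60 and *pnoca*, the precursor of an opioid-like peptide, by 2.37. Of 9 tested genes of prostaglandin metabolism 4 were up-regulated and none was down-regulated. Beside *ptges* and *ptgs2b* these were *ptgs1*, the constitutive cyclooxygenase (1.33), and *hpgds*, a prostaglandin D synthase (0.91). In *ptgs1* 38.2% of the exon length lay inside exons on the other strand. The calls of *ptgs1* and *ptgs2b* were lost in 17 and 20 of 41 alternatives. Of 6 plakin genes, which link filaments to junctions, *pleca*, *plecb* (−0.53) and *eppk1* (−0.87) were down-regulated and *macf1b* (0.86) was up-regulated. The calls of *plecb* and *eppk1* were lost in 19 and 14 of 41 alternatives, and those of *pleca* and *macf1b* in 7 each. The prostaglandin and plakin families were chosen after their values were seen. Their counts are therefore not set against the shares over all genes tested (5.29% and 1.5%). The name of *eppk1* is less sure, since the spans of the counted gene and of its RefSeq match shared 0.58 of their joint length.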
